A study of Mus musculus with 6 samples.

Results

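Chemokines, interleukins and the receptors of both were examined in pancreatic islets of wild-type mice and of mice that carry a transgene for the microRNA miR-203 in their beta cells. The members are the protein-coding genes of the authors' annotated tables whose symbols start with Ccl, Cxcl, Ccr, Cxcr or Il and a number, together with Cx3cl1. The rule found 109 genes among the 47643 of the count tables, of which 29725 had a count in any library. They were 18 CC chemokines, 12 CXC or CX3C chemokines, 15 chemokine receptors, 24 interleukins, 37 interleukin receptors or receptor subunits, and 3 genes that are neither ligand nor receptor (Il1rn, Il18bp and Il4i1). RNA sequencing of whole islets gave 3 wild-type (WT) and 3 transgenic (TG) libraries, numbered here within each genotype. Both genotypes were labelled as male, 10 weeks old and fasted for 12 h before the islets were frozen. The labels name neither the promoter that drives the transgene in beta cells nor the number of founder lines, and they do not say whether each library came from an animal of its own. A p-value here therefore reflects variation between libraries, some of which may be technical. A first set of tables holds WT 1, WT 2, TG 1 and TG 2, and a second set holds WT 3 and TG 3.

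Chemokines are small secreted proteins that bind G protein-coupled receptors and guide the movement of leukocytes, while interleukins signal between immune and tissue cells through receptors that couple to JAK kinases and STAT factors or, for the IL-1 and IL-17 families, to the NF-kB pathway. Islets hold resident macrophages, endothelial cells and stromal cells beside the hormone-secreting cells, and beta cells themselves carry the IL-1 receptor and respond to IL-1 beta by transcribing chemokine genes. In whole-islet RNA, fewer cells of a type and less RNA per cell cannot be told apart.

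Library totals ran from 20176456 to 27482339 counts, and the members took between 0.135% and 0.196% of them. The Mir203 gene had 39, 0 and 0 counts in WT 1 to 3 and 170, 164 and 150 in TG 1 to 3, so the library labelled WT 1 held reads of the transgene's gene. The X-inactivation transcript Xist, a female marker, had 25145 counts in WT 3 and 27240 in TG 3 and at most 13 elsewhere, and 4 Y-linked genes together had 16 and 1 counts there against 5463 or more elsewhere. The second set of libraries thus went against the label male in both genotypes. Islet hormone and secretory genes summed to between 130000 and 270000 CPM (read counts scaled to a normalized library size) in the 6 libraries, so the labelled tissue was present in each. All levels are in CPM, and log2 fold changes are TG over WT from an edgeR quasi-likelihood fit with genotype and table as terms.

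Most of the members that could be tested were higher in TG, but no single gene passed the test over all genes. Of the 109 members 68 had enough counts to be tested, and 52 of these had a higher and 16 a lower fitted level in TG. The median log2 fold change was 0.54, against -0.01 over all 16072 tested genes, of which 48.1% were higher. At a Benjamini-Hochberg adjusted p under 0.05, edgeR called 0 of the 68 members and 0 of all genes (0.0%), and the smallest adjusted p was 0.199 both among members and among all genes. At an unadjusted p under 0.05, 20 of 68 members were higher (29.4%) against 9.32% of all tested genes, and 4 were lower (5.88%) against 4.81%. Among the tested members, 51 reached the filter's cutoff of 0.432 CPM in all 3 WT libraries, 10 reached it in all 3 TG libraries but not in all WT libraries, and 1 did the reverse. The 10 included Ccl11, Cxcr5 and Il18rap, which were below the cutoff in every WT library. They also included Ccl22, Ccr1, Cxcl14, Il7 and Il33, which were below it in at least 1 WT library. A gene that enters the test through TG alone is bound to differ, so these counts describe the tested members and do not extend to the other 41.

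**Figure D1:**
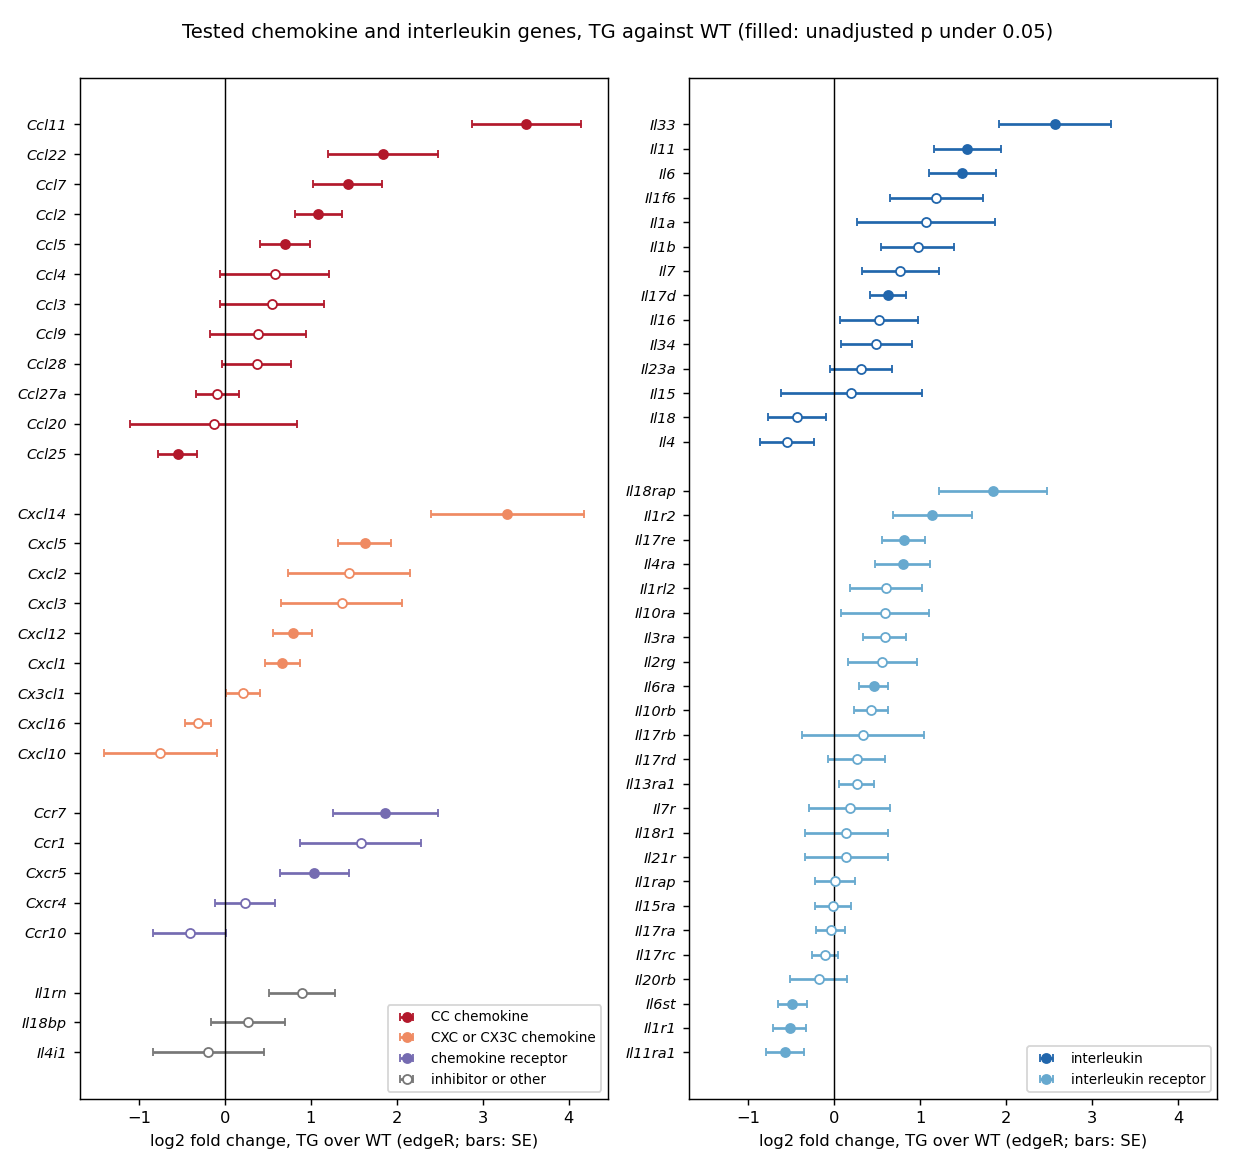
Fitted log2 fold change (TG over WT) of the tested members reported here on the horizontal axis, grouped by role; points are edgeR estimates, bars their standard errors, and filled points have an unadjusted p under 0.05. Most points lie to the right of 0, with Ccl11 (3.51) and Cxcl14 (3.29) farthest, while Il11ra1, Ccl25, Il1r1 and Il6st are the filled points on the left.

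The calls depended on the tool and on TG 2. DESeq2 called 9 members on the same counts, all higher in TG: Ccl2, Ccl7, Ccl11, Cxcl5, Cxcl12, Cxcl14, Il6, Il11 and Il33 (13.2% of 68, against 3.83% of all genes called higher and 0.846% called lower). At an unadjusted p under 0.05, DESeq2 put 24 members higher (10.2% of all genes) and 4 lower (4.64%). Limma-voom called 0 members, and 18 were higher (8.48% of all genes) and 4 lower (5.43%) by its unadjusted p. Without TG 2, edgeR called 16 of 72 tested members, which were the same 9 and Ccl22, Ccr7, Il1r2, Il4ra, Il6ra and Il17re as higher and Il11ra1 as lower, against 8.82% and 4.39% of all genes; by unadjusted p 30 were higher (17.0%) and 5 lower (13.3%). Without the low-count filter edgeR called 21 of 109 members higher (4.37% of all genes) and 1, Cxcl10, lower (1.25%), and by unadjusted p 33 were higher (8.22%) and 4 lower (3.86%). With the first table only, edgeR called 0 members, while by unadjusted p 11 of 73 were higher (4.22% of all genes) and 1, Cxcl16, lower (1.12%). The 11 were Ccl2, Ccl7, Ccl11, Cxcl1, Cxcl2, Cxcl5, Cxcl14, Il6, Il11, Il22 and Il33 (Il22 was named after its value was seen), and the median log2 fold change of the members there was 0.31.

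Among the CC chemokines, the eotaxin and monocyte chemoattractant genes of chromosome 11 were above WT of the same table in each TG library. Of 12 tested CC chemokines 9 were higher, 5 of them at an unadjusted p under 0.05. Ccl2, the ligand of the monocyte receptor CCR2 (GRCm38 chr11:82035571-82037453, plus strand), was at 30.9, 19.6 and 4.33 CPM in WT 1 to 3 and 57.4, 36.7 and 12.5 CPM in TG 1 to 3, the order used throughout. The genotypes overlapped across tables, since WT 3 and TG 3 were both low, but TG lay above WT within each table. The log2 fold change of Ccl2 was 1.09 (SE 0.27, n = 3 per genotype; edgeR, Benjamini-Hochberg adjusted p = 0.216). Ccl7, which also attracts monocytes and is the next gene on the chromosome (chr11:82045712-82047525), was at 3.83, 2.24 and 1.23 CPM in WT and 11.9, 5.20 and 2.95 CPM in TG, with a log2 fold change of 1.43 (SE 0.40, edgeR adjusted p = 0.234). Ccl11, or eotaxin, which attracts eosinophils through CCR3 (chr11:82057823-82062955), was at 0.270, 0.396 and 0.219 CPM in WT and 6.29, 1.47 and 2.53 CPM in TG. All 3 TG libraries were above all 3 WT libraries for Ccl11, and its log2 fold change of 3.51 (SE 0.63, edgeR adjusted p = 0.199) was the largest of the tested members. Ccl11 was below the filter's cutoff in every WT library and entered the test through TG alone. Within 250 kb of each other, Ccl2, Ccl7 and Ccl11 form a run with Ccl12 and Ccl8, which had too few counts to be tested.

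The second run of CC chemokines on chromosome 11, Ccl5, Ccl9, Ccl6, Ccl3 and Ccl4 (chr11:83525778-83664683), differed less. Ccl5, or RANTES, which attracts T cells and monocytes, was at 8.80, 9.42 and 1.93 CPM in WT and 11.5, 11.4 and 5.60 CPM in TG. TG was above WT in each table by a small margin in the first and a wider one in the second, and the log2 fold change was 0.70 (SE 0.29, edgeR adjusted p = 0.344). Ccl3, Ccl4 and Ccl9, with fitted values of 0.55, 0.58 and 0.39, had standard errors of 0.56 to 0.63, and Ccl6 was not tested. Ccl22, a ligand of CCR4 made mostly by macrophages and dendritic cells, was at 1.40, 0.528 and 0.350 CPM in WT and 4.83, 1.19 and 1.74 CPM in TG, where TG 2 lay between WT 1 and WT 2 (log2 fold change 1.84, SE 0.64, edgeR adjusted p = 0.283). Ccl28, an epithelial chemokine, was abundant and scattered, at 284, 156 and 30.7 CPM in WT and 137, 300.0 and 67.5 CPM in TG, and its fitted 0.37 (SE 0.40) was -0.01 with the first table only.

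Ccl25 was the 1 CC chemokine lower in TG at an unadjusted p under 0.05. This ligand of the gut-homing receptor CCR9 was at 6.59, 8.49 and 8.36 CPM in WT and 5.74, 5.64 and 4.65 CPM in TG. Every TG library was below every WT library, and the log2 fold change was -0.55 (SE 0.23, edgeR adjusted p = 0.343). It shares 204 bases with Elavl1 on the opposite strand, and the strand setting of the counting is not given, so part of its reads could belong to either gene.

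The neutrophil-attracting CXC chemokines, which signal through CXCR2 and lie side by side on chromosome 5 (chr5:90759360-90905938), all had higher fitted levels in TG. Cxcl5 was at 9.01, 8.36 and 2.54 CPM in WT and 31.4, 15.2 and 10.7 CPM in TG. All 3 TG libraries exceeded all 3 WT libraries, and the log2 fold change was 1.63 (SE 0.31, edgeR adjusted p = 0.199). Cxcl1 was at 40.0, 27.9 and 5.43 CPM in WT and 57.8, 64.0 and 6.48 CPM in TG, above WT within both tables but by little in the second (log2 fold change 0.67, SE 0.20, edgeR adjusted p = 0.246). Cxcl2 was at 3.35, 3.92 and 1.79 CPM in WT and 25.7, 5.32 and 1.62 CPM in TG, so that TG 1 stood alone. Its fitted 1.44 (SE 0.71) was 0.28 without TG 1, the lowest value with 1 library left out. Cxcl3 had the same shape, at 1.73, 4.31 and 0.525 CPM in WT and 16.6, 3.61 and 0.581 CPM in TG (1.36, SE 0.70).

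The promoters of Cxcl1, Cxcl2 and Cxcl3 share a match to the motif of NF-kB, a factor known to induce such genes, and are printed for that reason with those of Il6 and Il11; that of Cxcl5 was not analysed here. In a window of 120 bases that ends at the RefSeq transcription start (RefSeq, GRCm38.p6), capitals mark matches to the NF-kB consensus or, for Il11, to the AP-1 motif TGANTCA, searched on both strands. Cxcl1 (chr5:90891125-90891244, plus), Cxcl2 (chr5:90903779-90903898, plus) and Cxcl3 (chr5:90785981-90786100, plus) hold the same run of capitals, Il6 (chr5:30012994-30013113, plus) holds a shorter one, and Il11 (chr7:4778142-4778261, minus) holds the AP-1 letters.
Cxcl1: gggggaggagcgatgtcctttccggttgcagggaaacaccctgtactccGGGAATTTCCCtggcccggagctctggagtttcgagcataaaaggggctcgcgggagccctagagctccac
Cxcl2: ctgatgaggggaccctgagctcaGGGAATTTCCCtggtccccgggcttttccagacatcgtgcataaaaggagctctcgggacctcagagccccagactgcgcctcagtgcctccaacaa
Cxcl3: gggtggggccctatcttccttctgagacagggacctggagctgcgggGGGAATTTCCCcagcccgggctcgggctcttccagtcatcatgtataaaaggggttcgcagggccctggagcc
Il6: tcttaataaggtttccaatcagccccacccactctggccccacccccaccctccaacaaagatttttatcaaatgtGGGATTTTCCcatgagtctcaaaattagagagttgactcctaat
Il11: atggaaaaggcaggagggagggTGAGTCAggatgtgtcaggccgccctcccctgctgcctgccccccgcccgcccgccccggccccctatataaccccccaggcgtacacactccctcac

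Over the full windows of 250 bases before to 50 after each start, 16 of the 83 members with a RefSeq promoter entry held the NF-kB consensus (19.3%), against 4.51% of 32851 promoters. AP-1 letters were in 19 of the 83 (22.9%), against 7.81%. A member was counted once if any of its promoter entries held the letters, whereas the background counted each entry by itself. The shares of members and of all promoters are therefore not strictly comparable. Of the 49 tested members with an entry, 11 held the NF-kB letters: Ccl9, Ccl20, Ccl27a, Cxcl1, Cxcl2, Cxcl3, Cxcl10, Il1r1, Il4ra, Il6 and Il16. The letters occurred in members with both higher and lower fitted levels, among them Il1r1 (-0.52), Ccl20 (-0.13) and Cxcl10 (-0.75). These shares describe letters in a window and not bound sites.

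Cxcl12 and Cxcl14, chemokines that stromal and endothelial cells make in many tissues, were also higher in every TG library than in any WT library. Cxcl12, the ligand of CXCR4, was at 5.72, 5.63 and 5.65 CPM in WT and 9.42, 7.70 and 12.8 CPM in TG, with a log2 fold change of 0.79 (SE 0.23, edgeR adjusted p = 0.238). The WT libraries of both tables were nearly equal for Cxcl12, unlike those of Ccl2, Cxcl1 and Cxcl5. Cxcl14 was at 0.270, 1.14 and 0.700 CPM in WT and 15.5, 1.71 and 4.65 CPM in TG (log2 fold change 3.29, SE 0.89, edgeR adjusted p = 0.234). TG 1 decided much of that size, and without it the fitted value was 1.89. Cxcl10, an interferon-induced ligand of CXCR3, went the other way in the fit (-0.75, SE 0.66), but the value rested on WT 1. Its levels were 77.1, 17.4 and 10.3 CPM in WT and 9.60, 36.3 and 9.55 CPM in TG, and without WT 1 the fitted value was 0.20. Cxcl16, a ligand of CXCR6, was below WT within both tables, at 26.3, 27.9 and 16.2 CPM in WT and 19.3, 20.3 and 15.9 CPM in TG (-0.31, SE 0.15, edgeR adjusted p = 0.404). Cx3cl1, or fractalkine, was at 15.0 to 23.6 CPM in all 6 libraries, and the genotypes overlapped.

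Most chemokine receptors were near the limit of detection, Cxcr4 being an exception, and 6 of 15 were tested. Ccr7, the receptor that leads dendritic cells and T cells to lymph nodes, was at 1.03, 1.01 and 0.613 CPM in WT and 3.55, 1.11 and 6.06 CPM in TG. TG 2 was barely above the WT libraries while TG 1 and TG 3 were well above (log2 fold change 1.87, SE 0.61, edgeR adjusted p = 0.266). Cxcr5, a receptor of B cells, was at 0.216, 0.220 and 0.350 CPM in WT and 0.487, 0.476 and 0.664 CPM in TG, all TG above all WT (1.04, SE 0.40, edgeR adjusted p = 0.319). It had 4 to 8 counts in WT and 12 to 16 in TG, and it entered the test through TG alone. Ccr1, a receptor of macrophages for Ccl3, had a fitted value of 1.58 (SE 0.70), and TG 1 alone was high, at 3.06 CPM (fitted 0.58 without it). Cxcr4, the receptor of Cxcl12, had the highest mean level of the chemokine receptors per kilobase of gene length (7.09 CPM per kb) and was at 15.3, 9.64 and 10.1 CPM in WT and 7.86, 16.7 and 17.3 CPM in TG. Its genotypes overlapped, and its fitted 0.24 (SE 0.35) was -0.02 with the first table only. Ccr10, the receptor of Ccl28 and Ccl27, had a fitted -0.41.

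In the IL-6 family the ligands Il6 and Il11 and the receptor Il6ra had higher fitted levels in TG, and the subunits Il6st and Il11ra1 lower ones. Il6, an inflammatory cytokine that signals through its own receptor and the shared subunit gp130 (chr5:30013114-30019981, plus), was at 8.64, 8.49 and 2.28 CPM in WT and 25.6, 11.1 and 11.5 CPM in TG. All 3 TG libraries were above all 3 WT libraries, and the log2 fold change was 1.49 (SE 0.39, edgeR adjusted p = 0.230). Il11, a gp130 cytokine known for its role in stromal cells (chr7:4772373-4782857, minus), was at 5.72, 5.06 and 5.56 CPM in WT and 23.2, 8.02 and 16.6 CPM in TG. The WT libraries of Il11 were within 1 CPM of each other across both tables, every TG library was above them, and the log2 fold change was 1.55 (SE 0.39, edgeR adjusted p = 0.216). Il6ra, the subunit that binds IL-6, was at 108, 95 and 89.0 CPM in WT and 142, 109 and 151 CPM in TG, again without overlap and with a margin of under 2 CPM between WT 1 and TG 2 (0.46, SE 0.17, edgeR adjusted p = 0.308).

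The subunit shared by the family was lower. Il6st, which encodes gp130 (chr13:112464070-112510086, plus), was at 144, 161 and 147 CPM in WT and 131, 121 and 77.8 CPM in TG. Every TG library lay below every WT library, with TG 3 the lowest, and the log2 fold change was -0.49 (SE 0.17, edgeR adjusted p = 0.286). Il11ra1, the subunit that binds IL-11, was at 18.6, 17.0 and 23.5 CPM in WT and 9.98, 16.2 and 13.4 CPM in TG, without overlap but with TG 2 close to WT 2 (-0.57, SE 0.22, edgeR adjusted p = 0.327). The Il11ra1 gene overlaps Galt on the same strand over 3468 bases and several genes on the opposite strand, and it has near-identical copies in the genome, so its count is uncertain. A list of gp130, common-beta and common-gamma family genes outside the symbols of the rule also held genes that do not share these subunits. Among the latter were Csf1, Csf3 and their receptors. Of the 17 tested genes of the whole list 12 were higher and 5 lower, with a median log2 fold change of 0.28. Lif, another gp130 ligand, was higher at an unadjusted p under 0.05, at 15.1, 10.9 and 5.60 CPM in WT and 33.2, 18.5 and 11.5 CPM in TG (1.01, SE 0.26, edgeR adjusted p = 0.222). Lifr, the receptor subunit for LIF that pairs with gp130, was lower, at 55.8, 64.2 and 54.2 CPM in WT and 38.1, 41.4 and 32.0 CPM in TG (-0.65, SE 0.13, edgeR adjusted p = 0.199). Csf1 was also lower at an unadjusted p under 0.05, at 129, 93.7 and 45.3 CPM in WT and 59.9, 81.8 and 38.6 CPM in TG (-0.51, SE 0.20, edgeR adjusted p = 0.322). Ligands and receptors did not divide by direction in this list, since the receptors Osmr (1.21, SE 0.52) and Cntfr (0.82, SE 0.42) had higher and the ligand Ctf1 (-0.80, SE 0.39) a lower fitted level.

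**Figure D2:**
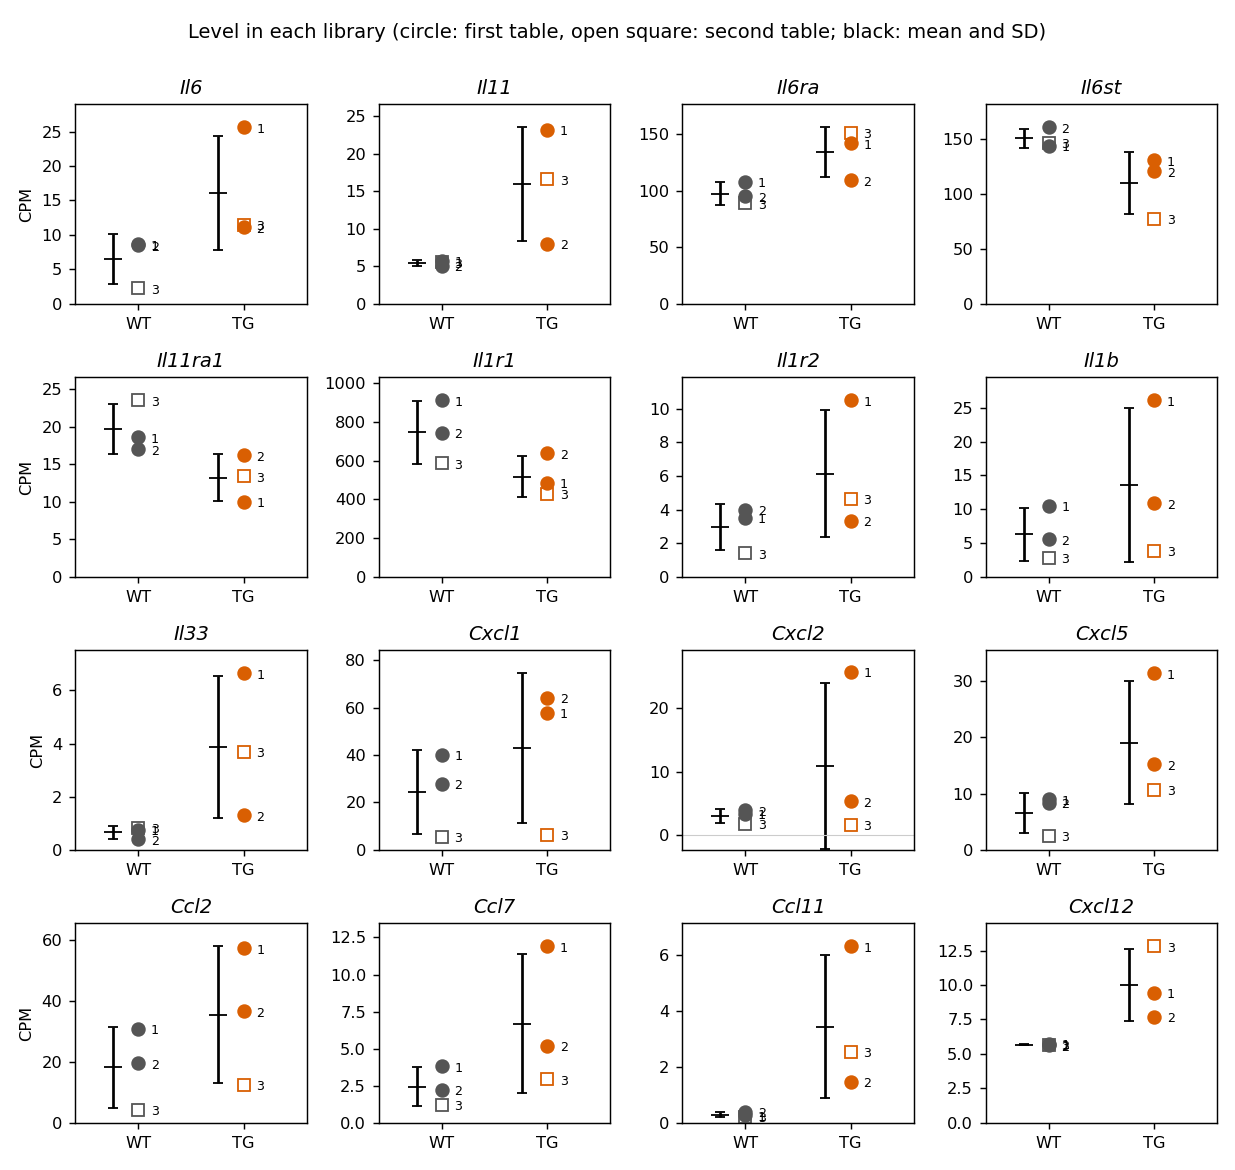
CPM (vertical axis, linear) of 16 members in each library by genotype; circles are libraries of the first table, open squares those of the second, numbers name the library, and black marks give mean and SD over 3 libraries. Il11, Il6ra, Cxcl12 and Ccl11 show all TG libraries above all WT libraries and Il6st all below, whereas Ccl2 and Cxcl1 differ within each table but overlap across them; for Cxcl2 the SD bar reaches below 0 because TG 1 stands alone.

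In the IL-1 family, the signalling receptor had a lower and the decoy receptor a higher fitted level in TG. Il1r1, the signalling receptor of IL-1 (chr1:40225080-40317257, plus), was at 911, 744 and 586 CPM in WT and 486, 639 and 429 CPM in TG. Each TG library was below the WT libraries of its table, although TG 2 was above WT 3, and the log2 fold change was -0.52 (SE 0.19, edgeR adjusted p = 0.294). The annotated gene Gm38070 lies within Il1r1 on the same strand and held up to 35454 counts in a library, so reads could be split between them. Gm38070 was at 1320, 793 and 292 CPM in WT and 576, 1410 and 285 CPM in TG, with a fitted -0.07 (SE 0.36, edgeR adjusted p = 0.946). Il1r2, the decoy receptor that binds IL-1 without signalling, is the neighbour of Il1r1 on chromosome 1 and was at 3.51, 4.0 and 1.40 CPM in WT and 10.5, 3.33 and 4.65 CPM in TG. TG 2 was below both WT libraries of its table, while TG 1 and TG 3 were above theirs (1.14, SE 0.46, edgeR adjusted p = 0.336). Il1rap, the co-receptor that Il1r1 needs for signalling, was at 5.35 to 10.7 CPM in all libraries, with a fitted 0.01 (SE 0.23) and no common direction.

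The ligands Il1b and Il1a and the receptor antagonist Il1rn did not reach an unadjusted p of 0.05. Il1b was at 10.5, 5.54 and 2.85 CPM in WT and 26.1, 10.9 and 3.86 CPM in TG, above WT in each table in every TG library (0.97, SE 0.42, edgeR adjusted p = 0.361), and the fitted value was 0.44 without TG 1. Il1rn was at 11.0, 5.90 and 1.44 CPM in WT and 13.0, 10.4 and 5.35 CPM in TG (0.90, SE 0.38, edgeR adjusted p = 0.359), where TG 2 lay between WT 1 and WT 2 and the fitted value was 0.47 without WT 3 or without TG 3. Il1a was high in TG 1 alone, at 6.57 CPM against 0.648 to 1.85 CPM in the other libraries, and without TG 1 its fitted 1.07 became -0.26. Il1f6, another ligand of the family, was at 0.702, 0.616 and 0.0 CPM in WT and 0.904, 1.87 and 0.083 CPM in TG. Every TG library was above WT of its table for Il1f6 (1.19, SE 0.54, edgeR adjusted p = 0.375), but WT 3 had 0 counts and TG 3 had 2. Il33, an alarmin of the family that stromal, endothelial and epithelial cells store in their nuclei (chr19:29925114-29960718, plus), had the largest value among the interleukins. It was at 0.756, 0.396 and 0.832 CPM in WT and 6.64, 1.31 and 3.69 CPM in TG, all TG above all WT (2.57, SE 0.65, edgeR adjusted p = 0.221), and the fitted value was 1.64 without TG 1. The receptor of IL-33, Il1rl1, had 0 to 4 counts in the WT libraries and 7 to 22 in the TG libraries and was not tested.

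Il18 and Il18bp differed without a common direction between libraries. Il18 was at 4.05 to 5.34 CPM in WT and at 2.64, 5.24 and 2.41 CPM in TG, with TG 1 and TG 3 lower and TG 2 within the WT range (-0.43, SE 0.34). Il18bp, which encodes the secreted inhibitor of IL-18, was at 111, 52.4 and 19.6 CPM in WT and 51.4, 87.4 and 49.3 CPM in TG, and its fitted 0.27 (SE 0.43) was -0.24 with the first table only. Il18rap, the accessory subunit of the IL-18 receptor, was at 0.270, 0.0880 and 0.0438 CPM in WT and 0.417, 0.516 and 0.457 CPM in TG. WT 2 and WT 3 lay below the level of 3 counts (0.132 and 0.131 CPM), so the fitted 1.85 (SE 0.63) depends on the prior count. Il18rap was also below the filter's cutoff in every WT library and entered the test through TG alone.

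In the IL-17 family, Il17d and Il17re were above WT of the same table in all 3 TG libraries, and the common receptor chains differed by less than 1 SE. Il17d, a ligand made by tissue cells rather than T cells, was at 14.9, 15.2 and 20.8 CPM in WT and 18.2, 19.5 and 49.4 CPM in TG. The gap was small in the first table and wide in the second (0.63, SE 0.21, edgeR adjusted p = 0.276). Il17re, an epithelial receptor for IL-17C, was at 16.9, 15.7 and 26.7 CPM in WT and 30.3, 17.7 and 65.4 CPM in TG, so that TG 2 lay just above the WT libraries of its table (0.81, SE 0.25, edgeR adjusted p = 0.25). Il17ra and Il17rc, the chains of the IL-17A receptor, had fitted values of -0.04 (SE 0.17) and -0.11 (SE 0.15), and their genotypes overlapped.

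Other cytokine receptors had moderate values. Il4ra, the chain that IL-4 and IL-13 share, was at 13.8, 15.9 and 15.1 CPM in WT and 27.3, 13.6 and 41.8 CPM in TG, with TG 2 below the WT libraries and TG 1 and TG 3 far above (0.80, SE 0.32, edgeR adjusted p = 0.340). Il13ra1, its partner, had a fitted 0.26 (SE 0.20), and Il10rb, a subunit shared by the IL-10 family, was above all WT libraries in all TG libraries, at 8.27 to 11.0 CPM in WT and 11.6 to 14.8 CPM in TG (0.43, SE 0.20, edgeR adjusted p = 0.374). Il4 was below all WT libraries in all TG libraries at a low level, at 1.51 to 1.79 CPM in WT and 0.955 to 1.39 CPM in TG (-0.55, SE 0.31, edgeR adjusted p = 0.473). Il7, a growth factor of lymphocytes, did not overlap in the other direction (0.77, SE 0.45).

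Per kilobase of annotated gene length, Il1r1 stood first among the members, at a mean of 99.4 CPM per kb over the 6 libraries and 67.4 to 143 in single libraries. Il18bp (14.0 to 79.4) and Ccl28 (8.22 to 80.4) followed with means of 44.2 and 43.5 CPM per kb, and their ranges overlapped with each other and with the lower end of Il1r1. Ccl2 (mean 23.6 CPM per kb), Il17d (18.8), Cxcl1 (17.9), Il13ra1 (14.4), Il3ra (13.5) and Il6ra (13.4) came next with overlapping ranges. The order below the first gene was thus not resolved by the spread between libraries.

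The transgenic libraries differed among themselves. Relative to WT of the same table, the median tested member was higher by 0.51 in TG 1, 0.12 in TG 2 and 0.80 in TG 3 (log2 CPM). In 22 of 68 tested members every TG library was above the WT libraries of its table (13.0% of all genes), and in 6 every TG library was below (13.4% of all genes). All 3 TG libraries exceeded all 3 WT libraries in 13 members (6.96% of all genes) and lay below them in 4, namely Ccl25, Il11ra1, Il4 and Il6st (6.42% of all genes). Both libraries of the second table were below all 4 of the first in 16 members (20.6% of all genes), among them Ccl2, Ccl3, Ccl4, Ccl5, Cxcl1, Cxcl2, Il1b and Il1rn. They were above in 4 members (17.9% of all genes), which were Il17d, Il17ra, Il17rc and Il3ra. A test of whether the TG effect differed between the tables called 0 members in edgeR and 0 in DESeq2. At an unadjusted p under 0.05, the TG over WT difference was more positive in the second table in 3 of 68 members, against 1.53% of all genes. These were Ccl5, Il17d and Il4i1, the last named after its value was seen. It was more negative in 0 (0.747% of all genes). Ccl5 and Il17d were higher in TG in both tables. Il4i1 was lower in the first (fitted -1.03) and higher in the second, at 3 to 12 counts per library, and it overlaps Nup62 on the same strand. Limma-voom was not run for this interaction. Of the 24 members with an unadjusted p under 0.05, 11 had a fitted value that moved by over 1.5 times with 1 library left out. Without TG 1 the value was 1.89 for Cxcl14, 1.64 for Il33, 1.11 for Ccl22, 1.02 for Il11 and 0.64 for Il1r2. Without WT 3 or without TG 3 it was 0.33 for Ccl5, 1.19 for Ccr7, 0.32 for Il17d, 0.46 for Il4ra and -0.28 for Il6st, and for Il6ra it was 0.30 without WT 3. The signs held in these fits.

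**Figure D3:**
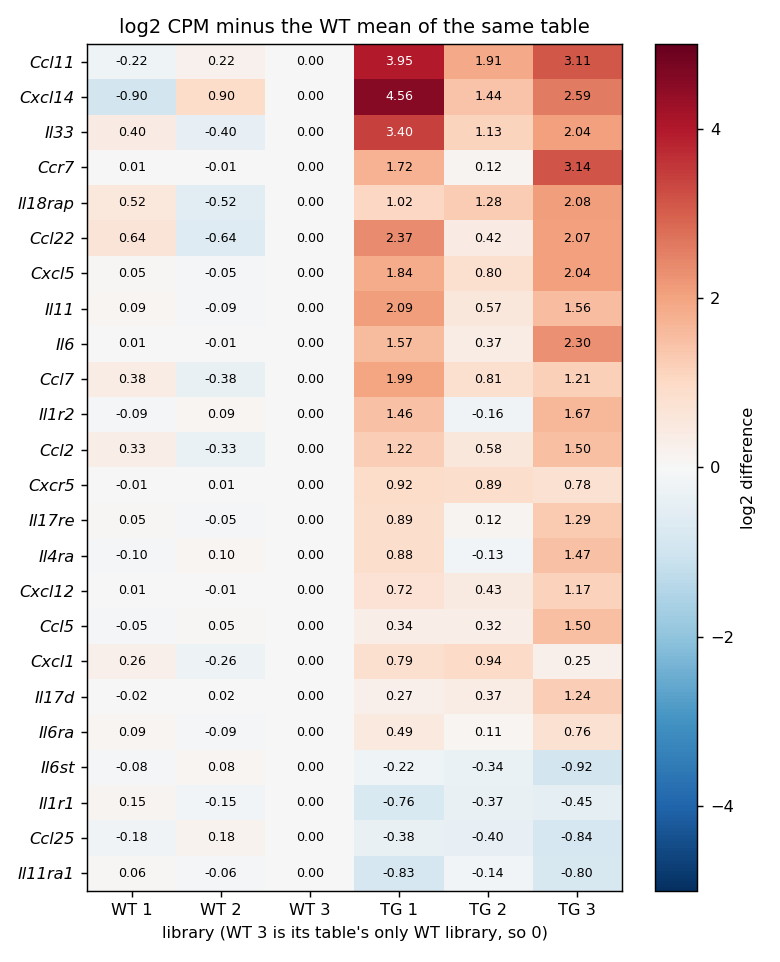
Log2 CPM of the 24 members with an unadjusted p under 0.05 (rows) in each library (columns) minus the mean of the WT libraries of the same table, as colour and number; WT 3 is its table's only WT library and is 0 by construction. TG 1 and TG 3 carry most of the large differences, such as 3.95 and 3.11 for Ccl11, and TG 2 is nearer to WT for most genes, at -0.16 for Il1r2 and -0.13 for Il4ra.

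Mature miR-203-3p and the sites that match its seed were examined because the transgene encodes this microRNA, which is known to pair through bases 2 to 8 with 3' UTRs and to lower the matched transcripts. The mature sequence lies at chr12:112130927-112130948 (plus strand; RefSeq, GRCm38.p6), with the seed in capitals. The 4 tested members with an 8-base match (CATTTCAA, in capitals) in their longest annotated 3' UTR were Ccl28 (chr13:119652233-119652260, plus), Il7 (chr3:7570828-7570855, minus), Il11 (chr7:4772863-4772890, minus) and Il33 (chr19:29959348-29959375, plus). Windows of 28 bases are read from GENCODE M21 transcripts on GRCm38.
miR-203-3p: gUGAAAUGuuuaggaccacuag
Ccl28: cagacttttcCATTTCAAgcttcctagg
Il7: cgttcatttaCATTTCAAatgctattcc
Il11: ggtaccctagCATTTCAAaggtcctcaa
Il33: agagagggtcCATTTCAAaaaccttcat

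Of the 68 tested members 10 held at least 1 match to the 7 bases CATTTCA (14.7%), against 2387 of 13824 tested protein-coding genes (17.3%), and the 8-base match was in 5.88% against 5.06%. The median 3' UTR was 1057 bases long among the tested members and 1181 among the tested protein-coding genes. All 10 members with a match, among them Ccl5, Cxcl1 and Il34 beside those printed, had a fitted level above 0 in TG, from 0.01 for Il1rap to 2.57 for Il33, while 1254 of the 2387 genes with a match had a lower one. Most tested members without a match were higher too, with 16 lower. The median log2 fold change was 0.68 in members with a match and 0.49 in those without. Over all tested protein-coding genes it was -0.02 with a match and -0.0 without. The sign was not stable for Ccl28, Il1rap and Il7r, which were below 0 in 3, 4 and 3 of the 15 alternative fits. None of Il1r1, Il6st, Il11ra1 and Ccl25, the 4 members that were lower at an unadjusted p under 0.05, held a match in this UTR. A match describes letters only, and matches outside the longest annotated 3' UTR were not searched.

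Markers of other cell types differed between the libraries as well. Stellate-cell and fibroblast markers, which label cells known to make Il6, Il11, Il33, Cxcl12 and Ccl11, summed to 26.2, 67 and 79.8 CPM in WT and 182, 34.5 and 142 CPM in TG, with TG 1 and TG 3 high and TG 2 within the WT range. Of these 10 markers 8 were higher and 2 lower, and Pdgfra, Col1a1, Dcn and Lum had an unadjusted p under 0.05. Duct-cell markers were higher in 8 of 8 tested and summed to 872 to 1290 CPM in WT and 1720 to 2280 CPM in TG. Myeloid markers were higher in 10 of 15, and their sums overlapped, at 119 to 278 CPM in WT and 151 to 268 CPM in TG. Cd68, a macrophage marker, was lower at an unadjusted p under 0.05 (-1.10, SE 0.27, edgeR adjusted p = 0.216), and C1qa and Cd14 were higher by the same criterion.

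Endothelial markers summed to 276 to 434 CPM in WT and 321 to 583 CPM in TG, with TG 3 the highest, and 9 of 10 had higher fitted levels. Lymphoid markers were sparse, at 5.32 to 9.11 CPM in WT and 2.40 to 6.72 CPM in TG, and 3 were tested. The B-cell marker Cd79a was lower at an unadjusted p under 0.05, at 4.43, 4.75 and 6.87 CPM in WT and 0.939, 2.70 and 1.91 CPM in TG (-1.51, SE 0.41, edgeR adjusted p = 0.234). Ms4a1 had a lower (-0.51, SE 0.76) and Cd79b a higher fitted level (1.05, SE 0.62). Neutrophil markers summed to 0.744 to 2.11 CPM in WT and 0.581 to 4.21 CPM in TG. The defining markers Ly6g and Retnlg of neutrophils and Ncr1 of natural killer cells were at 0 counts in all 6 libraries. Acinar markers followed the table, at 2910 and 6490 CPM in the first table's WT and 140 in WT 3, against 3330, 4460 and 284 CPM in TG. The endocrine genes differed among themselves. Ins2, the main insulin gene, was lower in TG 1 and TG 3, at 23300 and 27200 CPM, than in TG 2, at 149000 CPM, or in WT, at 156000, 168000 and 79300 CPM. Ins1 was lower at an unadjusted p under 0.05 (-1.01, SE 0.35), and Ppy (1.70, SE 0.40), Pyy (1.92, SE 0.54) and Chga (0.94, SE 0.32) were higher. No marker was called in edgeR over all genes, and the part of these cell types and endocrine genes in the differences of the chemokine and interleukin genes was not tested.

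**Figure D4:**
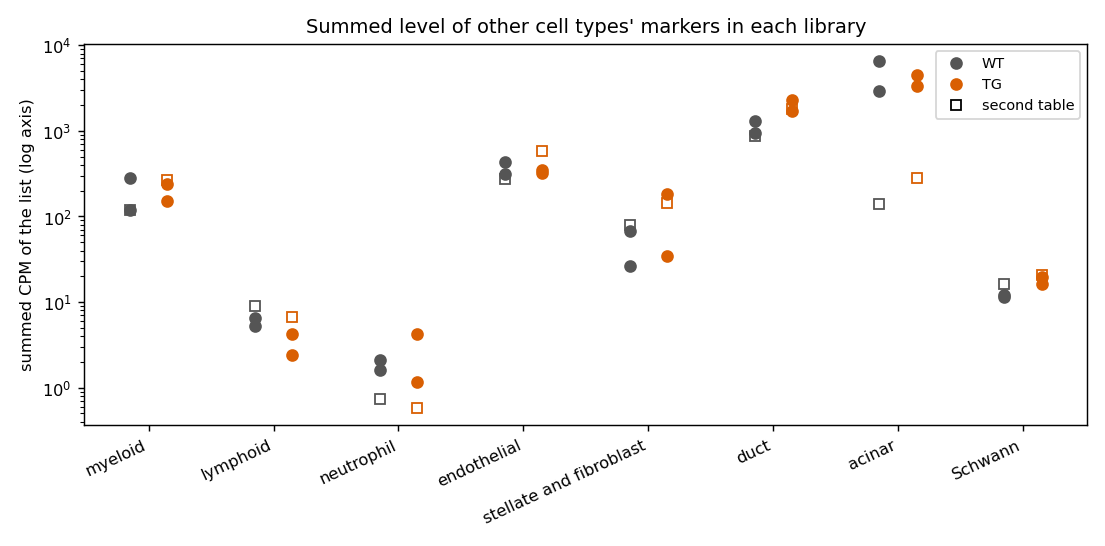
Summed CPM (vertical axis, log scale) of the marker list of each cell type in every library; grey is WT, orange TG, and open squares are second-table libraries. Duct markers lie above all WT libraries in all TG libraries (1720 to 2280 against 872 to 1290 CPM), stellate and fibroblast markers do so in TG 1 and TG 3 alone, and lymphoid and neutrophil sums stay under 10 CPM throughout.

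Genes that carry the signals of these receptors showed no common direction. Of 15 JAK, STAT and SOCS genes 8 were higher and 7 lower, with a median log2 fold change of 0.07. Socs3, the feedback inhibitor that STAT3 induces, was the 1 with an unadjusted p under 0.05, at 54.3, 33.7 and 54.6 CPM in WT and 73.3, 48.6 and 109 CPM in TG (0.65, SE 0.25, edgeR adjusted p = 0.319). TG 2 lay within the WT range for Socs3. Of 12 genes of IL-1 and IL-17 receptor signalling 4 were higher and 8 lower (median -0.15). Irak2, a kinase of the IL-1 receptor complex, was at 8.80, 9.2 and 7.79 CPM in WT and 26.0, 9.92 and 27.6 CPM in TG (1.27, SE 0.38, edgeR adjusted p = 0.245), while Tollip, an inhibitor of that complex, had a fitted -0.53 and Traf6, its ubiquitin ligase, -0.33.

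Among 5 tested genes that process IL-1 beta and IL-18, 2 were higher and 3 lower. Pycard, the adaptor ASC of the inflammasome, was at 5.34, 5.94 and 4.47 CPM in WT and 1.91, 3.33 and 1.37 CPM in TG, every TG library below every WT library (-1.30, SE 0.31, edgeR adjusted p = 0.214). Of 7 tested chemokine-system genes with other symbols 6 were higher. Ackr3, the scavenger receptor that removes Cxcl12, was at 2.81, 1.28 and 1.23 CPM in WT and 7.44, 5.16 and 5.52 CPM in TG, again without overlap (1.81, SE 0.37, edgeR adjusted p = 0.199).

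The 41 members that were not tested had a median total of 15 counts over the 6 libraries. The largest single count was 75, for Ccl21a in TG 3, against 8 in TG 2 and 0 in the other libraries, and this lymphoid chemokine has near-identical gene copies that the counting could have split. Of the 41, 34 had a larger mean CPM in TG. The share over all untested genes was not computed, so this count cannot be read as a trait of the members. The untested members included 9 chemokine receptors, such as Ccr2, the receptor of Ccl2, at 0 to 7 counts in WT and 1 to 12 in TG, and Cxcr3, the receptor of Cxcl9 and Cxcl10, whose mean CPM was smaller in TG. Il10, an anti-inflammatory cytokine, had 8, 7 and 0 counts in WT and 24, 3 and 2 in TG, and Cxcl9, an interferon-induced chemokine, 5, 1 and 0 in WT and 2, 18 and 12 in TG. Il22ra1, the receptor chain through which islet cells can respond to IL-22, had 0 to 3 counts in WT and 5 to 9 in TG. A count of 0 allows up to 3 counts, or 0.104 to 0.162 CPM depending on the library, by counting error alone, so most of these genes lay near that limit and no fold is given for them.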

How the data were processed

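RNA sequencing of islets was deposited as raw counts per gene in a pair of tables. The authors deposited whole-number counts per gene. The submitters' processing notes name CASAVA 1.8, HISAT2 and the build GRCm38 (mm10), with counting tool, strandedness and annotation not given in the sources used here. Genes that overlap, run antisense or have near-identical copies are therefore uncertain. Members were taken from the protein-coding entries of the authors' annotated FPKM tables (96 listed in both tables, 9 in the first only, 4 in the second only), and the counts were joined on the gene identifier. Positions are those of the annotated tables.

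The fit over all genes used edgeR 4.0.16 (R 4.3.3) with TMM factors, the filterByExpr filter by genotype, terms for table and genotype and a quasi-likelihood F-test, and p-values were adjusted by Benjamini-Hochberg over all 16072 tested genes. SE was taken as the size of the log2 fold change over the root of F, and deviations per library use log2 CPM with a prior count of 2. In counts simulated from these libraries over 15879 genes, the test called 47 of 100 genes changed by 1 log2 unit, 99 of 100 changed by 2, and 12 unchanged genes. The changed genes were drawn from genes with higher mean levels than Ccl11, Il33 and Cxcl14 (1.86, 2.27 and 4.0 CPM). No difference between the tables was simulated, so these shares do not extend to such members. DESeq2 1.42.0, limma 3.58.1 (voom), other normalizations and filters, the first table alone and each library left out served as alternatives. Intervals and floors cover counting error only.

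Named were tested members with an unadjusted p under 0.05, the 10 with the highest mean CPM, the 8 with the largest fold changes, those known from islet cytokine biology, and those that did not overlap between the genotypes within both tables. Others are given by counts and ranges, or as neighbours and receptors of named ones. The members, the marker and pathway lists and this rule were chosen with earlier results of these data known. The values of 1 tested member are not reported here, though it is in the counts.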

Additional observations from a re-analysis of the deposited data

Results flagged for a closer look

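Among the members named by the rule, Cxcl2, Il17rc and Il1rap moved in opposite directions in the tables, with every TG library of the first on one side of its WT libraries and TG 3 on the other side of WT 3. Il4i1, outside that rule, did so as well. Relative to WT of the same table it was at -0.77 in TG 1, -0.94 in TG 2 and 1.43 in TG 3 (log2 CPM). Il4i1 is counted above among the members with an unadjusted interaction p under 0.05. The log2 difference of TG over WT was 1.67 in the first and -0.14 in the second table for Cxcl2, -0.25 and 0.15 for Il17rc, and 0.23 and -0.44 for Il1rap. The difference between the tables was tested as an interaction in edgeR, and its unadjusted p was 0.134, 0.246 and 0.191 for Cxcl2, Il17rc and Il1rap. The second table holds 1 library per genotype, and its libraries differ from the first also in their sex-linked transcripts.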

How the results depend on the processing

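No paired analysis was possible because the labels of WT and TG libraries share no replicate numbers. Over all genes edgeR called 0, DESeq2 752 and edgeR without the low-count filter 1672, and leaving out single libraries gave 0 to 2188, where 2188 came without TG 2. Members called were 0 in the reported fit, 9 with DESeq2, 22 of 109 without the filter, and 0 to 16 with single libraries left out, 16 without TG 2. Members higher at an unadjusted p under 0.05 numbered 20, 33 without the filter, 13 without the table term, 11 with the first table only, and 11 to 30 with single libraries left out (11 without WT 3 or TG 3). Members lower numbered 4, 0 without the table term, 1 with the first table only, and 0 to 5 with single libraries left out (0 without WT 2 or TG 3). All 24 members with an unadjusted p under 0.05 kept their direction in each alternative that gave a value (13 of 15 for Cxcr5 and Il18rap, 15 for the others), as did 38 of 46 named members in the fits. The other 8 reversed as follows. With the first table only, Ccl28 was at -0.01, Cxcr4 at -0.02, Il17ra at 0.02 and Il18bp at -0.24. Without TG 3 the values were -0.01, -0.02, 0.02 and -0.24, and without WT 3 they were -0.01, -0.02, 0.01 and -0.24. Without WT 1, Cxcl10 was at 0.20, Il17rb at -0.05 and Il1rap at -0.04. Without TG 1, Il17rb was at -0.50 and Il1a at -0.26. Without TG 2, Cxcr4 was at -0.03, Il17ra at 0.07 and Il1rap at -0.11. Il1rap was at -0.06 without WT 2 and -0.00 without the filter. With single libraries left out, Ccl28 ran from -0.01 to 0.78, Cxcl10 from -1.36 to 0.20, Cxcr4 from -0.03 to 0.58, Il17ra from -0.21 to 0.07, Il17rb from -0.50 to 0.92, Il18bp from -0.24 to 0.80, Il1a from -0.26 to 1.58 and Il1rap from -0.11 to 0.23. The members' median ran from 0.31 without TG 3 to 0.78 without WT 1. The causes were not tested. A fit with 1 library of a genotype in a table assumes that it varies like the others.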
